A study of Mus musculus with 8 samples.

Results

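Cxcr6 and Ccr2 are 2 of the 2000 genes in a pooled single-cell expression table of mouse liver tumours, and they are described here because of the cell classes in which they were detected. Cxcr6 encodes the receptor for the chemokine Cxcl16 and is known from T cells that settle in tissues such as the liver. Ccr2 encodes the receptor for Ccl2, Ccl7 and related chemokines, through which monocytes leave the bone marrow and enter inflamed tissue, and subsets of T and NK cells carry it as well. Both are G protein-coupled receptors that steer moving cells along chemokine gradients. In RefSeq on GRCm38.p6, the assembly also called mm10, Cxcr6 lies on chromosome 9 from 123806477 to 123811754 and Ccr2 on the same chromosome from 124101918 to 124109140. Cxcr6 sits inside Fyco1, which runs on the opposite strand, and 0 bases of their exons overlap in GENCODE M21.

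Hepa1-6 is a hepatoma line of the mouse, and tumours of these cells were dissociated and read by droplet-based sequencing of the 3′ ends of transcripts. The labels name 4 groups: tumours with a WT genotype given PBS into the peritoneum, WT tumours given a PD1 antibody by the same route, and tumours with Soat1 knockdown given either PBS or the antibody. The entry titles write KO where the genotype field writes knockdown. Each group has a cDNA and an oligo entry, and the age and strain of the animals, the number of tumours and the clones used are not given in the sources used here. The 53528 cells carry a last number from 1 to 6, which defines 6 sets of 7569 to 11813 cells. No label ties a set to a group, so no genotype or treatment was compared, the sets are unassigned samples, and no p-value is given.

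In set 1 the values are the natural log of 1 plus UMIs (unique molecular identifiers, which count captured RNA molecules) per 10000 UMIs of the cell, and whole UMI counts were recovered for all 9370 of its cells. The cells of set 1 had 1001 to 261833 UMIs each. Levels are given below as UMIs per 1000000 UMIs (CPM) with exact 95% Poisson intervals, and every such level and ratio is from set 1. In sets 2 to 6 each cell had values below 0, left by a step that is not recorded, so the table may have been scaled or integrated there. For these sets only mean deposited values are given, and whether the sets are independent of one another is unknown.

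Cells were assigned to classes by marker genes that did not include Cxcr6 or Ccr2. After removal of called doublets set 1 held 1159 CD8 T, 66 CD4 T, 47 regulatory T, 48 NK, 87 monocyte, 726 macrophage and 71 dendritic cells. Some genes outside the gates followed the names, with Ikzf2 at 921.1 CPM in regulatory T, 303 CPM in CD4 T and 140 CPM in CD8 T cells. Lyz2 was 1891 CPM in monocytes, and Tyrobp 591.2 CPM in NK cells and 457 CPM in monocytes. Others did not: the granzyme gene Gzmb was 1449 CPM in regulatory T against 1104 CPM in CD8 T cells. Alb, a hepatoma marker, was 1300 CPM in NK and 1840 CPM in dendritic cells. The gates also had faults. Of the 87 monocyte-gated cells, 22 fell into fibroblast clusters when the cells were clustered on all other genes, and 52 of the 1159 CD8 T cells fell into hepatoma clusters. Of the 48 NK cells 13 lay in hepatoma clusters, and of the 47 regulatory T cells 12 lay in CD4 T clusters. Before removal of doublets, 104 of 1186 CD8 T cells lay in clusters that received no name. The class levels and the CD8 T divisions by Pdcd1 and cell cycle are therefore also given for cells whose gate and cluster had the same name, a choice made after the data were seen. Cells that satisfied the hepatoma gate and lay in a hepatoma cluster gave a reference, here called the hepatoma background: 2.21 CPM of Cxcr6 and 0.910 CPM of Ccr2. Hepatoma cells were deeper than CD8 T cells, as given below, and free RNA may take a larger part of the UMIs of shallower cells. It was not measured in the immune classes, so folds over this reference may be too high.

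Cxcr6 was highest in CD8 T cells and stepped down through CD4 T, regulatory T and NK cells to the hepatoma background in myeloid cells. CD8 T cells held 5067 Cxcr6 UMIs, a level of 629.9 CPM (interval 612.7 to 647.5). CD4 T cells followed at 300.2 CPM (247 to 361), regulatory T cells at 125 CPM (88.1 to 171) and NK cells at 58.7 CPM (32.1 to 98.5). The intervals of these neighbours in the order did not overlap for CD8 T, CD4 T and regulatory T cells. They overlapped for regulatory T and NK cells, whose ratio was 2.12 (1.12 to 4.24). Of the 38 Cxcr6 UMIs in regulatory T cells, 14 came from a single cell. Monocytes at 6.18 CPM, macrophages at 3.97 CPM and dendritic cells at 4.87 CPM did not differ from each other beyond counting error, and the intervals of their ratios to the hepatoma background all included 1.

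Ccr2 followed another order, with regulatory T cells and monocytes at the top and CD8 T and dendritic cells at the bottom. Regulatory T cells held 135 Ccr2 UMIs in 47 cells, a level of 442.5 CPM (371 to 524). A single cell held 37 of these UMIs, and the interval does not cover such differences between cells. Monocytes followed at 346 CPM (296 to 402), NK cells at 214 CPM (159 to 281), macrophages at 117 CPM (106 to 130) and CD4 T cells at 109 CPM (78.2 to 148). CD8 T cells had 67.4 CPM (61.8 to 73.3) and dendritic cells 41.4 CPM (24.1 to 66.3). Regulatory T cells and monocytes were close, at a ratio of 1.28 (1.01 to 1.61), and CD4 T cells and macrophages did not differ beyond counting error, at 0.928 (0.656 to 1.28). Among CD8 T, CD4 T and regulatory T cells of set 1 the levels of both genes had opposite orders. The step of Ccr2 between CD4 T and CD8 T cells was not common to the sets, as given below. Every class stood above the hepatoma background of Ccr2, dendritic cells by 45.5 times (25.8 to 75.6).

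In cells whose gate and cluster agreed, the order of Cxcr6 was the same in T cells, and monocytes led for Ccr2. Ccr2 then reached 964 CPM in 50 monocytes (820 to 1127), 898 CPM in 26 regulatory T cells (726 to 1097) and 427 CPM in 26 NK cells (290.3 to 606). In CD8 T cells it was 61.2 CPM (55.4 to 67.5), and in CD4 T cells 93.6 CPM (57.1 to 144), where a single cell held 12 of the 20 UMIs. Cxcr6 was 713 CPM in 953 CD8 T cells (693 to 734), 365 CPM in 47 CD4 T cells (288 to 455) and 217 CPM in 26 regulatory T cells (138 to 326). The 26 NK cells held 0 Cxcr6 UMIs of 72551 UMIs in all, and a count of 3, the limit that a count of 0 allows, would be 41.4 CPM. Of the 14 Cxcr6 UMIs in the whole NK gate, 12 came from a single cell.

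**Figure D1:**
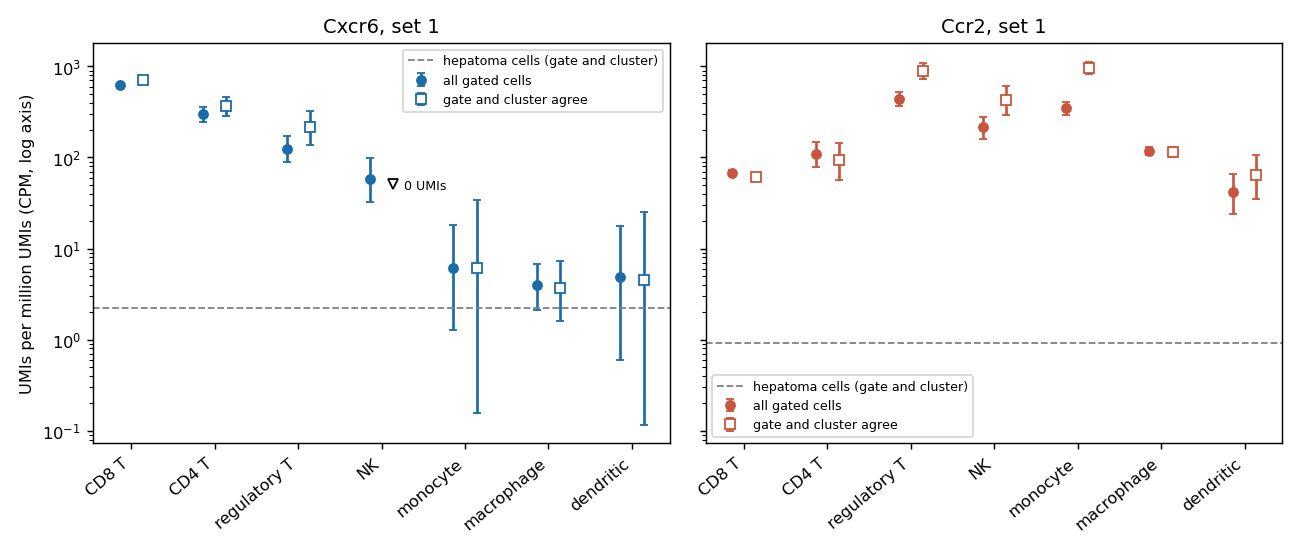
Level of Cxcr6 and Ccr2 in each cell class of set 1, in CPM on a log axis, with exact 95% Poisson intervals. Filled circles are all gated cells, open squares the cells whose gate and cluster agreed, the triangle the upper bound for NK cells with 0 UMIs, and the dashed line hepatoma cells: Cxcr6 steps down from 629.9 CPM in CD8 T cells to the dashed line in myeloid cells, and Ccr2 peaks in regulatory T cells and monocytes.

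Set beside the other genes of the table, Cxcr6 was 2.10 times as high in CD8 T as in CD4 T cells (1.74 to 2.55). Of 1358 genes with at least 10 UMIs over both classes, 24.9% were at least 2 times higher in CD8 T cells. Without cells that had 2 hepatoma markers this ratio was 1.26 (0.786 to 2.14). That filter left 407 of 5067 Cxcr6 UMIs in CD8 T cells and 18 of 113 in CD4 T cells. The Cxcr6 ratio of CD8 T cells was 5.06 over regulatory T cells (3.68 to 7.15), where 23% of genes were at least 2 times higher. Over NK cells it was 10.7 (6.39 to 19.6), with 33.9% of genes at least 2 times higher, and over macrophages 159 (92.6 to 298), with 24.1%. Ccr2 was 0.315 times as high in CD8 T as in NK cells (0.236 to 0.429), where 30.1% of genes were at least 2 times lower, and 0.574 times as high as in macrophages (0.503 to 0.656), where 42.4% were. Ccr2 was 0.619 times as high in CD8 T as in CD4 T cells (0.450 to 0.872), which is short of the fold of 2 that 16% of genes passed downwards. This last ratio rested on 41 UMIs in CD4 T cells. The ratio was 0.386 without cells that had a macrophage marker on and 0.946 with a marker threshold of 0.25, and it turned to 2.23, on 1 UMI in CD4 T cells, when cells with 2 hepatoma markers were left out. Against regulatory T cells the CD8 T level of Ccr2 was 0.152 times as high (0.126 to 0.185), and 19.4% of genes were at least 2 times lower. Since the genes were chosen for these patterns, the shares are a description and nothing is read from them.

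The mean deposited values separated CD8 T, CD4 T and regulatory T cells for Cxcr6 in each of the 6 sets, while several steps of the Ccr2 order were not common to them. For Cxcr6 in CD8 T cells the mean was 1.78, 1.77, 1.67, 1.70, 1.76 and 1.61 natural log units in sets 1 to 6. In CD4 T cells it was 1.07, 1.03, 1.27, 1.22, 1.37 and 1.23 in the same order. The values of CD8 T and CD4 T cells did not overlap, and CD8 T cells were higher in 6 of 6 sets by 0.387 to 0.745. Regulatory T cells ranged from 0.047 to 0.477, lowest in sets 4 and 6, and NK cells from -0.037 to 0.126. NK cells were above macrophages in only 2 of 6 sets. Monocytes, macrophages and dendritic cells all lay between -0.009 and 0.054.

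For Ccr2 the mean in regulatory T cells was 1.11, 1.17, 0.932, 0.830, 1.31 and 0.948 in sets 1 to 6. In monocytes it was 1.10, 1.19, 0.470, 1.09, 1.12 and 0.917, with set 3 far below the rest. Among the monocytes whose gate and cluster agreed set 3 was no longer low, at 1.75 within a range of 1.26 to 2.00 over the sets. NK cells ranged from 0.492 to 0.763, macrophages from 0.310 to 0.419, CD8 T cells from 0.206 to 0.285 and CD4 T cells from 0.084 to 0.331. NK cells were above monocytes in set 3 alone. Regulatory T cells were above CD8 T, CD4 T, NK, macrophage and dendritic cells in 6 of 6 sets. CD8 T cells were above CD4 T cells in 4 of 6 sets, by -0.085 to 0.143, so the order of these neighbours in set 1 was not common to the sets. Where gate and cluster agreed, CD4 T cells ranged from -0.030 to 0.144 and CD8 T cells from 0.167 to 0.294. CD8 T cells were then above CD4 T cells in each set, the reverse of the order of the levels in set 1.

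**Figure D2:**
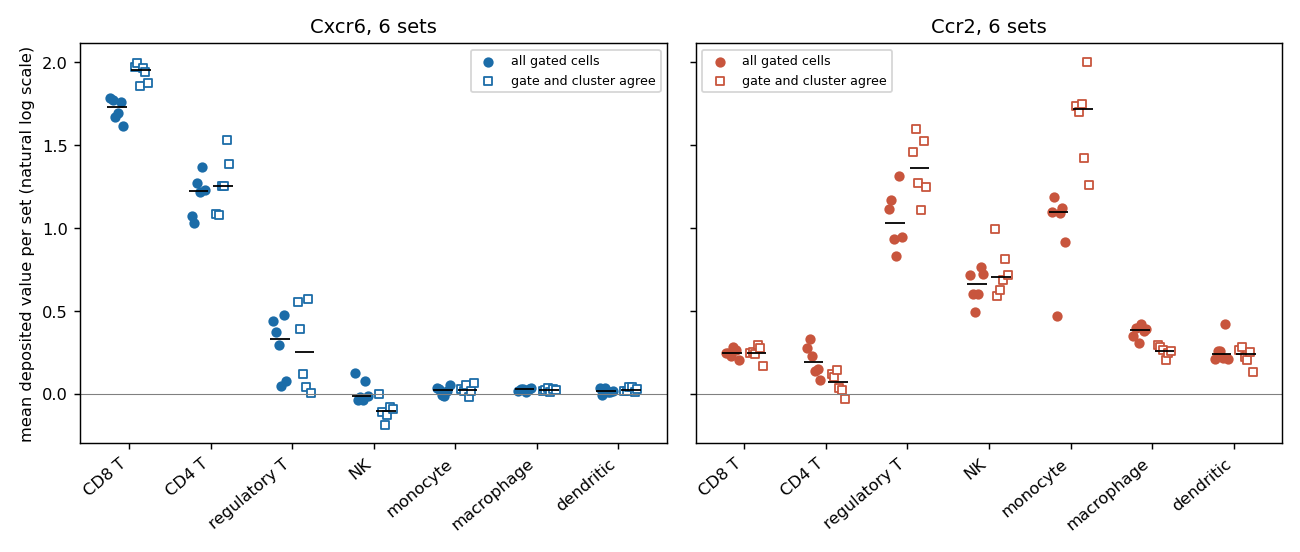
Mean deposited value of Cxcr6 and Ccr2 per cell class, 1 point for each of the 6 sets in the order of their numbers, on the natural log scale, with a bar at the median. Filled circles are all gated cells and open squares those whose gate and cluster agreed: Cxcr6 separates CD8 T from CD4 T cells in all 6 sets, and Ccr2 of regulatory T cells lies between 0.830 and 1.31.

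The share of T and NK cells with a Cxcr6 UMI followed its level, and that of Ccr2 did not in every class. A Cxcr6 UMI was found in 84.1% of CD8 T cells (exact binomial interval 81.9 to 86.2), 56.1% of CD4 T cells (43.3 to 68.3), 29.8% of regulatory T cells (17.3 to 44.9) and 6.25% of NK cells (1.31 to 17.2). It was also found in 5.05% of hepatoma cells, which should lack the gene and had a median of 18419 UMIs against 5221 in CD8 T cells. After each cell was thinned to 1000 UMIs, which left out no cell, these shares were 49.7% in CD8 T cells and 0.192% in hepatoma cells. A Ccr2 UMI was found in 48.9% of regulatory T cells (34.1 to 63.9), 46.0% of monocytes (35.2 to 57.0), 35.4% of NK cells (22.2 to 50.5), 18.9% of macrophages, 16.7% of CD8 T cells, 15.5% of dendritic cells and 12.1% of CD4 T cells. CD4 T cells were thus last by share, although their level was above those of CD8 T and dendritic cells. The share in hepatoma cells was 2.08%, or 0.0962% after thinning, when CD8 T cells had 6.30% and regulatory T cells 31.9%. The 1% of CD8 T cells with the most Ccr2 UMIs held 24.0% of them, against 4.64% for Cxcr6.

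Of the 194 CD8 T cells with a Ccr2 UMI, 89.2% also had a Cxcr6 UMI, against 84.1% among all CD8 T cells. Thinned to 1000 UMIs the shares were 61.6% and 49.7%. Both were found in 14.9% of CD8 T cells (12.9 to 17.1), against 14.1% for the product of the 2 shares, and after thinning in 3.88% (2.85 to 5.16) against 3.13%. Regulatory T cells were divided more evenly, with 34.0% carrying a Ccr2 UMI alone, 14.9% a Cxcr6 UMI alone and 14.9% both. In NK cells 31.2% had a Ccr2 UMI alone and 2.08% a Cxcr6 UMI alone. Over the 6 sets, with a value above 0.5 counted as detected, 9.44% to 20.7% of CD8 T cells had both, and 24.2% to 44.6% of regulatory T cells had Ccr2 alone. These shares move with depth, so they are not levels.

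**Figure D3:**
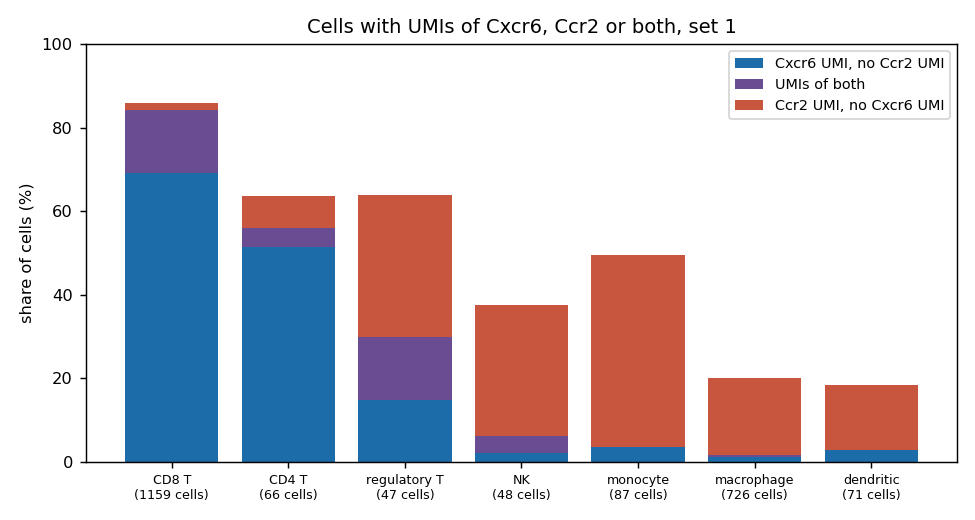
Share of the cells of each class in set 1, in percent, with a Cxcr6 UMI and no Ccr2 UMI, with UMIs of both, and with a Ccr2 UMI and no Cxcr6 UMI. CD8 T cells are 69.2% Cxcr6 alone and 1.81% Ccr2 alone, and macrophages are 1.24% and 18.6%.

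Monocytes are the precursors of many tissue macrophages, and Ccr2 was 2.95 times as high per UMI in monocytes as in macrophages (2.44 to 3.54). At least 2 times higher in monocytes were 28% of the 1416 genes with at least 10 UMIs over both classes. The difference of mean values was 0.752, 0.787, 0.160, 0.670, 0.737 and 0.524 in sets 1 to 6, higher in monocytes in 6 of 6. The ratio depended on which cells counted as monocytes, and was 8.43 (6.86 to 10.3) where gate and cluster agreed and 5.06 with classes taken from clusters alone. The markers of macrophages summed to 276 CPM in the monocyte gate, which bars cells with a C1q gene on, and to 6643 CPM in macrophages. The T-cell gates held macrophage RNA too. All 8 macrophage markers of the table were above 0 in CD8 T cells, at a sum of 129 CPM, and the sum was 246 CPM in CD8 T cells with a Ccr2 UMI against 100.2 CPM in those without. In CD4 T cells the sum was 515 CPM, with Trem2 and Cd163 at 0, and 15.2% of the cells had a marker on. In regulatory T cells it was 144 CPM, with 4 of the 8 at 0, and 31.9% had one on. In the 960 CD8 T cells with no macrophage marker on, Ccr2 was still 54.5 CPM (48.9 to 60.4), or 59.8 times the hepatoma background (48.9 to 73.5). It was 122 CPM in the 199 cells with one on. Cxcr6 was 635 CPM and 608 CPM in the same cells, a ratio within counting error.

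The receptors were next followed through CD8 T cells by Pdcd1, which encodes PD-1, the inhibitory receptor that tumour-reactive T cells keep on and that the antibody binds. The cells were divided into those with no Pdcd1 above the threshold and, at the median of the rest, a lower and an upper group. Cxcr6 was 222.8 CPM in 176 cells without Pdcd1, 583 CPM in 492 cells of the lower group and 831 CPM in 491 cells of the upper group. The ratio of upper to not detected was 3.73 (3.25 to 4.30), where 32.4% of 1215 genes were at least 1.5 times higher and 54.9% at least 1.5 times lower. Misplaced cells were unequal between these groups. Of the 176 cells without Pdcd1, 48 lay in hepatoma clusters, and all 9 hepatoma markers were above 0 with a sum of 9356 CPM, against 1158 CPM in the upper group and 1211 CPM in the lower. The T-cell markers summed to 1492 CPM and 4653 CPM in the same groups. Where gate and cluster agreed the groups held 85, 434 and 434 cells with 772.5, 606 and 852 CPM of Cxcr6, and the ratio of upper to not detected was 1.10 (0.942 to 1.30). It was 19.4 with a marker threshold of 0.25, so its size followed the choice of cells.

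Among those agreeing cells the upper group stood 1.41 times above the lower group (1.33 to 1.49), at median depths of 5246 and 6358 UMIs, and all gated cells gave 1.42 (1.35 to 1.51). On the deposited scale, upper exceeded lower in 6 of 6 sets by 0.136 to 0.383 in all gated cells and by 0.016 to 0.318 in agreeing cells. Upper exceeded not detected by 0.592 to 1.12 in all gated cells and by 0.096 to 0.561 in agreeing cells, again in 6 of 6 sets. The agreeing cells without Pdcd1 had a median of 1979 UMIs, so their values on this scale hold more zeros. The steps of Ccr2 in set 1 lay within counting error in all gated cells. It was 60.7, 67.9 and 68.9 CPM in the groups without, with lower and with upper Pdcd1, a ratio of 1.14 for upper to not detected (0.849 to 1.54). The ratio was 0.612 (0.387 to 1.02) where gate and cluster agreed and 1.84 (1.20 to 2.94) without cells with a macrophage marker, an interval that excludes 1. The difference on the deposited scale had no common sign in the sets. Upper over lower was 1.01 (0.842 to 1.22), and the mean value was lower in the upper group in 6 of 6 sets, by differences of -0.087 to -0.004.

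Cell-cycle genes divided the same CD8 T cells another way, and both receptors had a lower level in the upper than in the lower cycle group, as the middle gene of the table did. Cells were ranked by the mean of 24 cell-cycle genes such as Mki67 and Top2a and cut into 3 groups of equal size. Cxcr6 was 732 CPM in the lower, 802 CPM in the middle and 487 CPM in the upper group, and upper over lower was 0.665 (0.619 to 0.714). Ccr2 was 84.2, 68.9 and 59.3 CPM in the same order, with a ratio of 0.704 (0.570 to 0.872). At least 1.5 times lower in the upper group were 48.9% of 1261 genes, and 19.1% were at least 1.5 times higher. Cxcr6 was just past that fold and Ccr2 short of it. The median log2 ratio of all genes was -0.54. The ratio of Cxcr6 lay above that of 48.7% of genes and that of Ccr2 above 50.4%, so neither stood apart in all gated cells. Misplaced cells were unequal here too: 29 of 387 cells in the lower and 5 of 386 in the upper group lay in hepatoma clusters. The hepatoma markers summed to 5066 CPM and 1178 CPM in these groups. The shares of genes were not computed for cells whose gate and cluster agreed. For Ccr2, upper over middle was 0.861 (0.701 to 1.06), and upper over lower was 0.791 (0.604 to 1.04) without cells with a macrophage marker. Where gate and cluster agreed the ratios were 0.482 for Cxcr6 (0.447 to 0.519) and 0.491 for Ccr2 (0.387 to 0.625). With a marker threshold of 0.25 both turned, to 1.13 and 1.14.

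In each set the upper group was below the lower one. For Cxcr6 the differences were between -0.427 and -0.253 natural log units in all gated cells and between -0.713 and -0.328 in agreeing cells, lower in 6 of 6 sets each time. For Ccr2 they were between -0.146 and -0.052, and between -0.136 and -0.038. Per cell the order of both genes was the reverse. The upper group had 5.06 Cxcr6 UMIs per cell at a median of 8502 UMIs, and the lower group 3.26 at a median of 3075 UMIs. Thinned to 1000 UMIs, 37.8% of the upper and 56.3% of the lower group had a Cxcr6 UMI, while unthinned the shares were 88.6% and 77.8%. Ccr2 had 0.617 UMIs per cell in the upper and 0.375 in the lower group, with shares of 19.2% and 16.0%, or 5.18% and 8.01% after thinning. In the lower and upper Pdcd1 groups taken alone, Cxcr6 in highly cycling cells was 0.516 (0.463 to 0.575) and 0.522 (0.470 to 0.580) times that of the least cycling, while in cells without Pdcd1, 26 against 94 cells, it was 1.64 (1.13 to 2.33). For Ccr2 these ratios were 0.332 (0.249 to 0.446) in the lower and 1.16 (0.801 to 1.71) in the upper Pdcd1 group. In cells without Pdcd1 the Ccr2 ratio was 1.94 (0.883 to 4.03). Of the 176 cells without Pdcd1, 48 lay in hepatoma clusters. The crossed ratios of both genes were not recomputed where gate and cluster agreed, so nothing is read from their differences between Pdcd1 groups. The highest Cxcr6 level in any of these crossed groups was 1077 CPM, in 169 cells with upper Pdcd1 and low cycling.

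**Figure D4:**
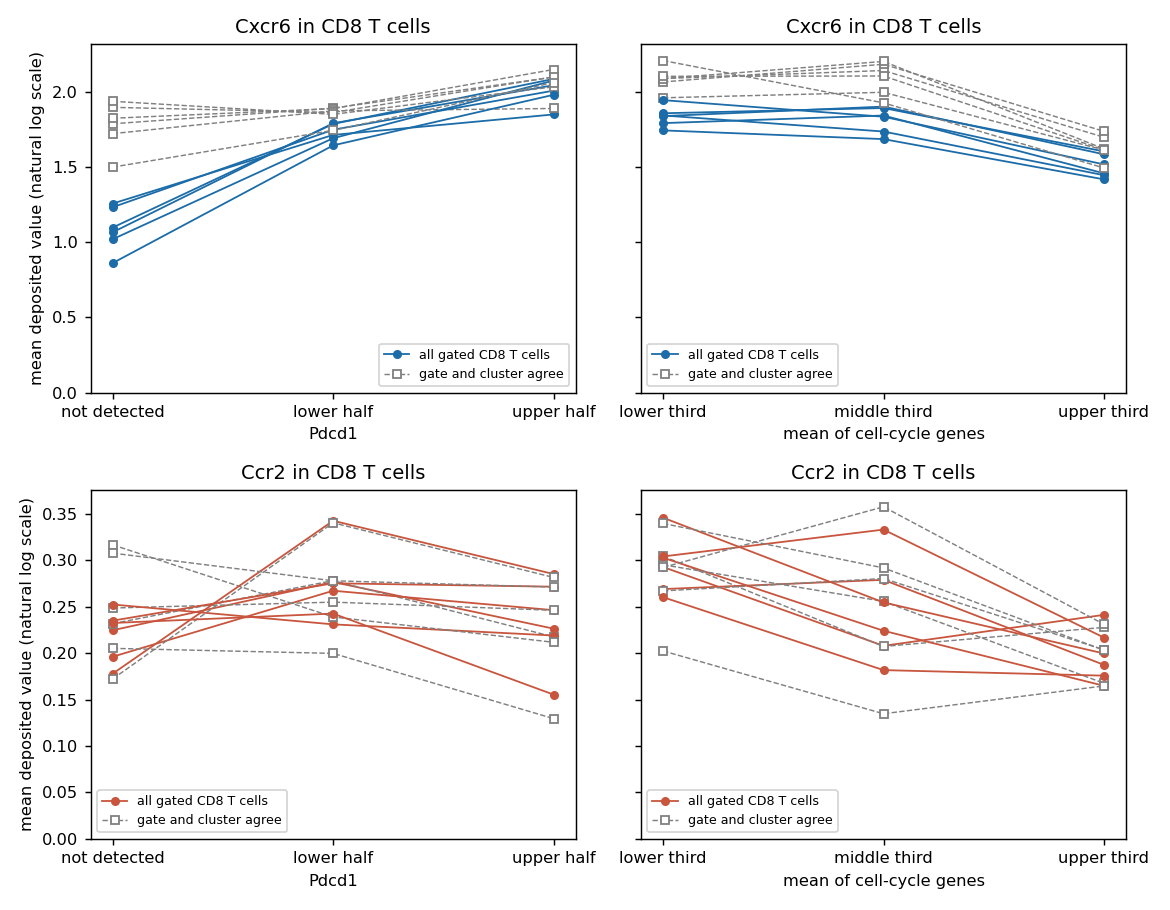
Mean deposited value, on the natural log scale, of Cxcr6 (top) and Ccr2 (bottom) in CD8 T cells divided by Pdcd1 (left) and by the mean of cell-cycle genes (right), with 1 line per set. Solid lines are all gated cells and dashed lines those whose gate and cluster agreed: from cells without Pdcd1 to the upper group, Cxcr6 is higher by 0.592 to 1.12 with solid lines and by 0.096 to 0.561 with dashed lines, which dip at the lower group in sets 4 and 5, and both genes are lower in the upper than in the lower cycle group of 6 of 6 sets.

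Other genes that mark states of CD8 T cells crossed the receptors in different ways. Il7r, the interleukin-7 receptor of long-lived T cells, went with Ccr2, at 90.9 CPM in cells with Il7r on and 62.9 CPM with it off, a ratio of 1.45 (1.17 to 1.78). Thinned to 1000 UMIs, however, 5.78% of cells with Il7r on (2.81 to 10.4) and 6.39% with it off (4.94 to 8.10) had a Ccr2 UMI. These shares did not differ beyond counting error, so the higher level was not seen in them. Havcr2, an inhibitory receptor, had a Ccr2 ratio of 1.42 (1.18 to 1.71). Its thinned shares were 6.85% on (4.94 to 9.21) and 5.74% off (3.98 to 7.97), with intervals that also overlapped. Xcl1, a chemokine that draws type 1 dendritic cells, went the other way, with Ccr2 at 0.577 (0.468 to 0.708) and Cxcr6 at 0.855 (0.805 to 0.908). On the deposited scale Ccr2 was higher with Il7r and with Havcr2 in 6 of 6 sets and lower with Xcl1 in 6 of 6. For Cxcr6 the ratios were 1.12 with Il7r on, 1.12 with Havcr2 on and 0.734 with the granzyme gene Gzmc on (0.670 to 0.802). On the deposited scale Cxcr6 was higher with Havcr2 on in 6 of 6 sets, by 0.288 to 0.577. Its mean was higher with Il7r on in 4 of 6 sets, and with Gzmc or Xcl1 on in 1 of 6 each. Thinned to 1000 UMIs, 49.5% of cells with Gzmc on and 49.7% with it off had a Cxcr6 UMI. Without cells with a macrophage marker the Havcr2 ratio of Cxcr6 was 1.06 (0.999 to 1.13). Itga1, an integrin subunit of tissue-resident T cells and added after the data were seen, had the highest of these Cxcr6 ratios, 1.45 (1.35 to 1.54), and was higher in 6 of 6 sets by 0.279 to 0.383. Other genes tied to residence, added in the same way, did not share it: the Cxcr6 ratio was 0.818 (0.666 to 0.995) with the integrin gene Itgae on, in 28 cells, and 1.06 (0.998 to 1.12) with Cd69 on. Cells with Il7r, Havcr2, Xcl1 or Gzmc on were deeper than those without, at medians of 6469, 6432, 6559 and 8865 UMIs against 5050, 3730, 4705 and 5030.5. None of the divisions by these genes was repeated in cells whose gate and cluster agreed.

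Of the 5 ligand genes listed, 4 were in the table, and Cxcl16 was not analysed here. Among the gated classes each of these ligands of Ccr2 was highest in monocytes or macrophages. Of the 87 monocyte-gated cells 22 lay in fibroblast clusters, and fibroblasts were not gated as a class. The ligand levels were not recomputed where gate and cluster agreed. Ccl2 was 550 CPM in monocytes and 381 CPM in macrophages, Ccl7 was 284 CPM and 305 CPM, Ccl8 was 30.9 CPM and 493 CPM, and Ccl12 was 22.7 CPM and 76.7 CPM. In CD8 T cells they were between 2.24 and 11.8 CPM. Thus 3 of the 4 had their highest level in macrophages and 1 in monocytes, classes that themselves carried Ccr2.

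Of 30 other chemokine receptor and homing genes listed, 18 were in the table, and none of them had the order of Cxcr6 from CD8 T through CD4 T and regulatory T to NK cells. The highest class was CD8 T cells for 5 of them, namely Ccr6 with 15 UMIs, Cx3cr1 at 112 CPM, Itga4 at 233 CPM, the selectin ligand gene Selplg at 243 CPM and the retention gene Cd69 at 252 CPM. Dendritic cells led for 3 (Ccr7 at 441 CPM and Xcr1, which are markers of their gate, and Itgae), NK cells for 3 (among them S1pr5 and Cxcr2), monocytes for 3 (Ackr3, Ccrl2 and Itga1, in a gate where 22 of 87 cells lay in fibroblast clusters), regulatory T cells for 2 (among them Itgb7 at 315 CPM), macrophages for Ccr1 and CD4 T cells for Ccr9 with 1 UMI. Neutrophils, not counted among these classes, had more Cxcr2, 176 CPM. Over the ligand and receptor genes with enough UMIs, 4 of 19 were at least 2 times higher and 7 of 19 at least 2 times lower in CD8 T than in CD4 T cells, beside 24.9% and 16% of all genes, with a median log2 ratio of -0.25 beside 0.17. Of those 4 higher genes Ccl2, Ccr6 and Cxcr2 had 0 UMIs in CD4 T cells and ratio intervals that include 1. Between monocytes and macrophages 4 of 16 were higher and 5 of 16 lower, beside 28% and 24.3%, with a median of 0.56 beside -0.12. Among the lower ones Cxcr2 had 0 UMIs in monocytes and an interval that includes 1. Between upper and undetected Pdcd1 8 of 15 were at least 1.5 times higher and 5 of 15 lower, beside 32.4% and 54.9%, with a median of 1.06 beside -0.98. Between upper and lower cycling 3 of 18 were higher, Ccl12 among them with 0 UMIs in the lower group, and 6 of 18 lower, beside 19.1% and 48.9%, with a median of -0.29 beside -0.54.

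The genes most like each receptor were ranked by the Pearson correlation of log2(CPM + 1) over 9 classes of set 1, the 7 above with neutrophils and hepatoma cells, among 1785 genes with at least 50 UMIs. Among the genes most like Cxcr6 were the transcription factor gene Tox (0.98), the interleukin-18 receptor gene Il18r1 (0.96), the cytotoxic granule gene Nkg7 (0.96) and Ifng (0.96). Among those most like Ccr2 were Gbp4 (0.89), Pycard (0.89), Emb (0.88) and H2-K1 (0.87). Between Cxcr6 and Ccr2 the correlation was 0.45. All classes came from 1 set and differ in depth, so these values describe and test nothing.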

How the data were processed

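One pooled table of 2000 genes and 53528 cells was used. Per the submitters' processing notes, reads were aligned with STAR 2.7.2b, with the builds GRCh38 and mm10 named, and the series' design text says that cells were chosen with barcodeRanks of DropletUtils and genes counted with PISA. The authors deposited the values on a natural log scale, and the steps from counts to this table are not given in the sources used here. All 53528 columns belong to no known sample. Cell names hold running numbers, so barcodes shared between libraries could not be counted.

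In set 1 each value was turned back into UMIs per 10000, and a cell's UMI total was the whole number (tolerance 1e-06) that came up most often among its genes when each was taken to hold 1 UMI. It was found for 100% of cells, and 100% of nonzero values were then whole UMIs within 0.01. In sets 2 to 6 a total was found for 12.5% to 29.5% of cells. The genes of the table took 15.0% of all UMIs. Scrublet (scanpy 1.11.5, expected rate 6%) called 68 doublets, or 0.726%, which were left out of set 1 levels and kept in the mean values by set. Gates used markers above 0.5, and a cell meeting more than 1 gate was left out. The clusters used to check the gates came from 30 principal components of standardised values, 20 nearest cells and Leiden (leidenalg 0.10.2) at resolution 1, without Cxcr6, Ccr2, Pdcd1 and the cell-cycle genes. Where gate and cluster agreed, the cuts of Pdcd1 and of the cycle mean were set anew within those cells. Of the 1186 CD8 T cells of set 1 before removal of doublets, 74 lay within 0.05 of the Pdcd1 median, and 198 and 61 within 0.05 of the lower and upper cycle cut.

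Levels are summed UMIs per 1000000 UMIs with exact Poisson intervals, ratios have exact conditional Poisson intervals, and shares exact Clopper-Pearson intervals, all at the 95% level and for counting error only. The recovery and the ratios were tested on simulated data. The named genes were both receptors, the ligand and receptor lists, the 5 genes most like each receptor, and the CD8 T divisions by Pdcd1, cycle, Il7r, Havcr2, Xcl1 and Gzmc. Some of these genes are not reported here. The receptors, lists and divisions were chosen with earlier results of these data known. Only 8 ratios, listed in the closing section, were recomputed under other settings, each under at most 12.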

Additional observations from a re-analysis of the deposited data

Results flagged for a closer look

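Of 26 sets of mean values, 1 had a set far from the others. The mean deposited value of Ccr2 in dendritic cells was 0.419 natural log units in set 5 and 0.209 to 0.262 in the other 5 sets, a gap of 0.750 of the whole range where the critical value for 6 normal values, from numerical integration, is 0.628. Chance alone would flag about 5% of such groups. In the dendritic cells whose gate and cluster agreed, set 5 had 0.254 and the highest set 0.280, so it did not stand apart there.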

How the results depend on the processing

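The 8 ratios recomputed were Cxcr6 for CD8 T over CD4 T and over NK cells, Ccr2 for CD8 T over CD4 T cells and for monocytes over macrophages, and the Pdcd1 and cycle ratios of both. The alternatives gave 89 values: 43 lay within the interval of the reported ratio, 43 outside it and 3 reversed, and the cause was not tested. Reversal was counted only where the reported interval excludes 1. The Ccr2 Pdcd1 ratio, whose interval includes 1, was below 1 under 6 alternatives. With a marker threshold of 0.25, Ccr2 was 4.20 for monocytes over macrophages and 0.946 for CD8 T over CD4 T cells, the upper to undetected Pdcd1 ratios were 19.4 for Cxcr6 and 5.65 for Ccr2, and the cycle ratios reversed to 1.13 and 1.14. With a threshold of 1, Cxcr6 was 5.91 for CD8 T over NK cells, Ccr2 was 2.21 for monocytes over macrophages, the Pdcd1 ratios were 1.28 and 0.387, and the cycle ratios 0.504 and 0.471. With cells thinned to 1000 UMIs, Cxcr6 was 1.71 for CD8 T over CD4 T cells, Ccr2 was 4.34 for monocytes over macrophages and 0.432 for CD8 T over CD4 T cells, the Pdcd1 ratios were 1.75 and 0.807, and the Cxcr6 cycle ratio 0.574. Cells of at least 2000 UMIs gave 5.05 for the Cxcr6 Pdcd1 ratio. The mean over cells gave 4.40 for Ccr2 in monocytes over macrophages, 1.83 and 0.689 for the Pdcd1 ratios and 0.583 for the Cxcr6 cycle ratio. Without cells that had 2 hepatoma markers, Cxcr6 was 1.26 for CD8 T over CD4 T and 26.2 for CD8 T over NK cells. The 26.2 rested on 1 Cxcr6 UMI in NK cells (4.67 to 1036). Under the same filter Ccr2 was 4.76 for monocytes over macrophages and reversed to 2.23 for CD8 T over CD4 T cells. The Pdcd1 ratios were then 1.57 and 0.579, and the cycle ratios 0.875 and 0.396. Classes from clusters gave 5.06 for monocytes over macrophages, 0.365 for Ccr2 in CD8 T over CD4 T cells, 1.52 and 0.660 for the Pdcd1 ratios, and 0.476 and 0.439 for the cycle ratios. Splitting Pdcd1 on thinned UMIs gave 1.31 for Cxcr6, and calling cells cycling by the number of cycle genes on gave 0.836. Agreement of gate and cluster, added later, gave 8.43 for monocytes over macrophages, 1.10 and 0.612 for the Pdcd1 ratios, and 0.482 and 0.491 for the cycle ratios. Leaving out cells with a macrophage marker, also added later, gave 0.386 for Ccr2 in CD8 T over CD4 T cells and 1.84 for its Pdcd1 ratio. Cxcr6 of CD8 T over NK cells has no ratio by cluster, since the NK cells then held 0 Cxcr6 UMIs. Of the mean values by set 55 of 168 moved beyond the spread of the sets, and of the shares 9 of 14. No paired analysis was possible because no label links a set of cells to a replicate. Depth limits CD4 T, regulatory T, NK and dendritic cells most, with 66, 47, 48 and 71 cells.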

Other observations

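Ccr2 varied within macrophages, which were divided after the data were seen. The 225 macrophages of set 1 with a monocyte marker on had 225 CPM of Ccr2, and the 501 without had 61.9 CPM, a ratio of 3.64 (2.94 to 4.52) at median depths of 4064 and 2504 UMIs. The ratio was 2.70 (2.07 to 3.52) where gate and cluster agreed, and the mean value was higher with a monocyte marker in 6 of 6 sets, by 0.343 to 0.601. Macrophages with Arg1 on, the gene of an arginine-consuming enzyme, had 77.7 CPM of Ccr2 against 128 CPM with it off, a ratio of 0.608 (0.446 to 0.815), and were lower in 6 of 6 sets, with differences of -0.338 to -0.070. With the interferon-induced chemokine gene Cxcl9 on or off, Ccr2 was 117 CPM and 118 CPM, a ratio of 0.994 (0.809 to 1.22) that was 0.750 (0.579 to 0.971) where gate and cluster agreed, and the sign of the difference was mixed over the sets. Among dendritic cells of set 1, Ccr2 had 9 UMIs in 19 type 2 cells (116 CPM, 53.2 to 221), 4 UMIs in 19 type 1 cells (33.4 CPM, 9.10 to 85.6) and 0 UMIs in 18 mature cells, where a count of 3 would be 30.3 CPM.

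Genes that went with a Ccr2 UMI in CD8 T cells were ranked in set 1, among 714 genes with at least 50 UMIs in at least 50 cells, using cells whose gate and cluster agreed and with no macrophage marker on. Of the 5 highest ratios, Ly6c2, which marks inflammatory monocytes and also activated T cells, was the only gene higher in each of the 5 other sets, by 0.296 to 0.590 natural log units. In set 1 it was 252 CPM in 132 cells with a Ccr2 UMI and 126 CPM in 666 cells without, a ratio of 2.01 (1.73 to 2.32), at median depths of 6362 and 4555 UMIs. Of the 5 lowest ratios, Tnfsf4, the ligand of the costimulatory receptor OX40, had a ratio of 0.381 (0.198 to 0.675) and was lower in each of the 5 other sets, with differences of -0.118 to -0.044. Btla and Ncf1 were also lower in each of them, with differences no further from 0 than -0.043. For Cxcr6, of the 5 highest ratios only that of Sgo1, a gene of mitosis, had the same sign in each of the 5 other sets, and of the 5 lowest only that of Btla. Their differences reached 0.104 and -0.061, and the smallest were 0.0008 and -0.0025. Sgo1 had 3 UMIs in the 75 cells without a Cxcr6 UMI, which had a median of 2223 UMIs against 5185 in the 723 with one. Whether the other sets are independent of set 1 is unknown.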
